A study of Homo sapiens with 17 samples.

Results

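The mitochondrial ribosomal proteins described here were the genes of the deposited expression table whose symbol is MRPL or MRPS, a number and, in some, a letter from A to C. They came to 76 genes of the 20218 in the table, 47 named MRPL and 29 named MRPS, and were chosen by symbol and not by their values. Mitochondrial ribosomes translate the few mRNAs of the mitochondrial genome, all of which encode core subunits of the oxidative phosphorylation complexes. Their RNAs are transcribed from mitochondrial DNA, while their proteins are encoded in the nucleus, made in the cytosol and imported. Some of these proteins have a counterpart in the bacterial ribosome and others were added in the mitochondrial lineage, and heart muscle, which depends on oxidative phosphorylation, is rich in mitochondria.

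RNA was sequenced in 17 libraries. The cells came from H9, an established line of human embryonic stem cells, were differentiated in culture and carried a GFP reporter for SHOX2, a transcription factor of the sinoatrial node, and an mCherry reporter whose gene the labels do not name. The design compares SHOX2+mCherry+ with SHOX2-mCherry+ cells, and another sorted population was negative for both GFP and mCherry. At day 25 of differentiation there were 3 libraries each of GFP+mCherry+, GFP-mCherry+ and GFP-mCherry- cells, and at day 40 there were 2 of GFP+mCherry+, 3 of GFP-mCherry+ and 3 of GFP-mCherry- cells. All libraries are labelled as sinoatrial-node-like cells of the SHOX2 reporter line. The protocol in the labels starts every culture with CHIR99021, BMP4 and Activin A, follows with XAV939 for cardiomyocytes, and for sinoatrial cells uses cucurbitacin, retinoic acid, SU5402, XAV939 and Tyrphostin AG 490; the HDAC inhibitor chidamide was also added. It does not say which procedure each population came from, whether the reporter line is 1 clone, or whether libraries of 1 group are separate cultures. The p-values therefore measure the spread between libraries, which may be technical.

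Values are FPKM, fragments scaled to transcript length and library size, so levels of different genes are compared per length; the number of reads behind a value is unknown. Summed FPKM per library lay between 566029 and 660085, and 12944 to 13793 genes reached 1 FPKM. Libraries 13 (GFP+mCherry+, day 40) and 14 (GFP-mCherry+, day 40) stood apart with 16493 and 16598 genes above 0, against at least 17108 in every other library. Summed over 10 cardiomyocyte markers, levels came to 6200.5 to 15080 FPKM in GFP+mCherry+ and 22423 to 29321 FPKM in GFP-mCherry+ libraries of day 25, against 669.81 to 896.7 FPKM in GFP-mCherry- libraries. The 6 sinoatrial markers, SHOX2 among them, summed to 277.86 to 493.17 FPKM in GFP+mCherry+ libraries of day 25, against 100.09 to 126.56 FPKM in GFP-mCherry+ libraries. All 76 mitochondrial ribosomal protein genes reached 1 FPKM in 2 or more libraries, the condition for testing, and 1 value among them, MRPS6 in library 5, was listed at exactly 0.

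By role, 16 of the 76 encode proteins of the small subunit with a bacterial counterpart, 10 small-subunit proteins specific to mitochondria, 29 large-subunit proteins with a bacterial counterpart and 20 large-subunit proteins specific to mitochondria. MRPS18A and MRPS30 are counted in the large subunit, where their proteins sit despite the name. MRPS36 stands alone, since its protein is known as a component of the alpha-ketoglutarate dehydrogenase complex and not as a stable ribosomal subunit. The genes lie on 21 chromosomes, and 35 of them overlap another gene of the table in hg19. Overlap was judged from whole gene spans and not from exons. The strand used in counting is not given in the sources used here, so reads in bases shared by overlapping genes cannot be told apart.

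Promoters of MRPS6 and of a choice of called genes, which is not a ranking, are shown first. Nuclear genes for mitochondrial proteins are known for sites of ETS factors such as GABP, of NRF1 and of YY1. Each stretch below holds the 150 bases that end at the transcription start, 5′ to 3′ on the gene's strand, from RefSeq on GRCh38.p14. Capitals mark matches, on either strand, to CCGGAAG for ETS factors, to the 10-letter consensus of NRF1 and to ATGGCGG for YY1. MRPL36 had the smallest adjusted p between the mCherry+ populations at day 25. MRPS23 and MRPS9 were lower in GFP+mCherry+ cells at both days, MRPL27 was higher in GFP-mCherry+ than in GFP-mCherry- cells at both days, and MRPL40 was so at day 40. MRPS25 had the smallest adjusted p against the GFP-mCherry- cells at day 25, MRPS27 moved against most of the rest at day 40, and MRPS6 had the listed zero. The stretches are MRPL36 at chr5:1799838-1799987 (minus strand), MRPL27 at chr17:50373185-50373334 (minus strand), MRPS23 at chr17:57850045-57850194 (minus strand), MRPS9 at chr2:105037919-105038068 (plus strand), MRPL40 at chr22:19432395-19432544 (plus strand), MRPS25 at chr3:15065316-15065465 (minus strand), MRPS27 at chr5:72320241-72320390 (minus strand) and MRPS6 at chr21:34073428-34073577 (plus strand).
MRPL36: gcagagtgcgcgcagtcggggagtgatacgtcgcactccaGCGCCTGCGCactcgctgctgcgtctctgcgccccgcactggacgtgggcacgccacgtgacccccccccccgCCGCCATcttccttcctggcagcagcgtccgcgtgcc
MRPL27: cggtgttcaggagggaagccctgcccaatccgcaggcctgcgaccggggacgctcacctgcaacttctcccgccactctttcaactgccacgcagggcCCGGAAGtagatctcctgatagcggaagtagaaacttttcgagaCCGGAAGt
MRPS23: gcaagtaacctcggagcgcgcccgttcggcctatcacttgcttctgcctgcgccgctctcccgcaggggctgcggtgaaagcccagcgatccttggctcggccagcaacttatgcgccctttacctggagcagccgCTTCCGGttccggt
MRPS9: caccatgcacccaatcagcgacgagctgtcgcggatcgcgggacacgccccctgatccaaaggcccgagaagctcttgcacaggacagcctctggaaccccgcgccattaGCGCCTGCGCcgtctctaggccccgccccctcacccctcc
MRPL40: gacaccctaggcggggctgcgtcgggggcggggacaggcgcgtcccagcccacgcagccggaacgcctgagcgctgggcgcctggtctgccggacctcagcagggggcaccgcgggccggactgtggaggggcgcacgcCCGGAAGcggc
MRPS25: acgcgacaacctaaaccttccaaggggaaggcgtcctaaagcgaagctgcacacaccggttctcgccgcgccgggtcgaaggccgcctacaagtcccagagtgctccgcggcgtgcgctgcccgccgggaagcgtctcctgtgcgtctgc
MRPS27: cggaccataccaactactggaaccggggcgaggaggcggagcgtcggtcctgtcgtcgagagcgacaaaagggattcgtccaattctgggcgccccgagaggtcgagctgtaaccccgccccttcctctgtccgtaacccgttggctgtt
MRPS6: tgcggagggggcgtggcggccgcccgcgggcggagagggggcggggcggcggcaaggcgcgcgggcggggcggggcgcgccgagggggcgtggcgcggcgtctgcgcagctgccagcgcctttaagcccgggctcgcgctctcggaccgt

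MRPL36 held an NRF1 and a YY1 match in its stretch, MRPL27 held a pair of ETS matches, and MRPS23 and MRPL40 held 1 ETS match each. MRPS9 held an NRF1 match. The stretches of MRPS25, MRPS27 and MRPS6 held none of the 3 strings, which says only that these letters are not in these windows. Over the full window of 250 bases before to 50 after the start, promoters were matched for 67 of the 76 genes. Several genes with the smallest adjusted p are not printed. MRPL2, MRPL13, MRPL15 and MRPL21 had no matched promoter. Of the others, MRPL12, MRPL34 and MRPS5 held none of the 3 strings in the full window, while MRPL16, MRPL53 and MRPS24 held at least 1. The ETS string stood in 28 of the 67 (41.8%, 7 of them more than 1 time), against 17.4% of the 10966 tested genes with a promoter, and in 33.9% of the cytosolic ribosomal protein genes and 28.8% of the nuclear oxidative phosphorylation genes. The YY1 string stood in 23 (34.3%), against 9.31% of tested genes, 19.4% of cytosolic ribosomal protein genes and 34.6% of oxidative phosphorylation genes, and in 19 of the 23 it lay past the start. The NRF1 consensus stood in 6 (8.96%), against 7.38% of tested genes and 15.4% of oxidative phosphorylation genes. Matches may overlap one another, and 47 of the 67 promoters (70.1%) held at least 1 of them, against 29.5% of tested genes.

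Summed over the 76 genes, mitochondrial ribosomal protein mRNA was highest in GFP-mCherry+ cells at both days. At day 25 the sum was 2760, 2906 and 2649.5 FPKM in GFP+mCherry+ libraries, 3934, 4031 and 3911 FPKM in GFP-mCherry+ libraries and 3686.5, 2936 and 3144 FPKM in GFP-mCherry- libraries. At day 40 it was 2656 and 2457 FPKM in GFP+mCherry+ libraries, 3726, 3586 and 4533 FPKM in GFP-mCherry+ libraries and 2899, 2456 and 2961 FPKM in GFP-mCherry- libraries. Every GFP-mCherry+ library lay above every GFP+mCherry+ and every GFP-mCherry- library of its day. As a share of all FPKM the genes made up 0.480% ± 0.0136 in GFP+mCherry+, 0.607% ± 0.0126 in GFP-mCherry+ and 0.534% ± 0.0436 in GFP-mCherry- cells at day 25 (SD, n = 3 each). At day 40 they made up 0.445% ± 0.0211 in GFP+mCherry+ (SD, n = 2), 0.628% ± 0.0721 in GFP-mCherry+ (SD, n = 3) and 0.475% ± 0.0403 in GFP-mCherry- cells (SD, n = 3).

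**Figure D1:**
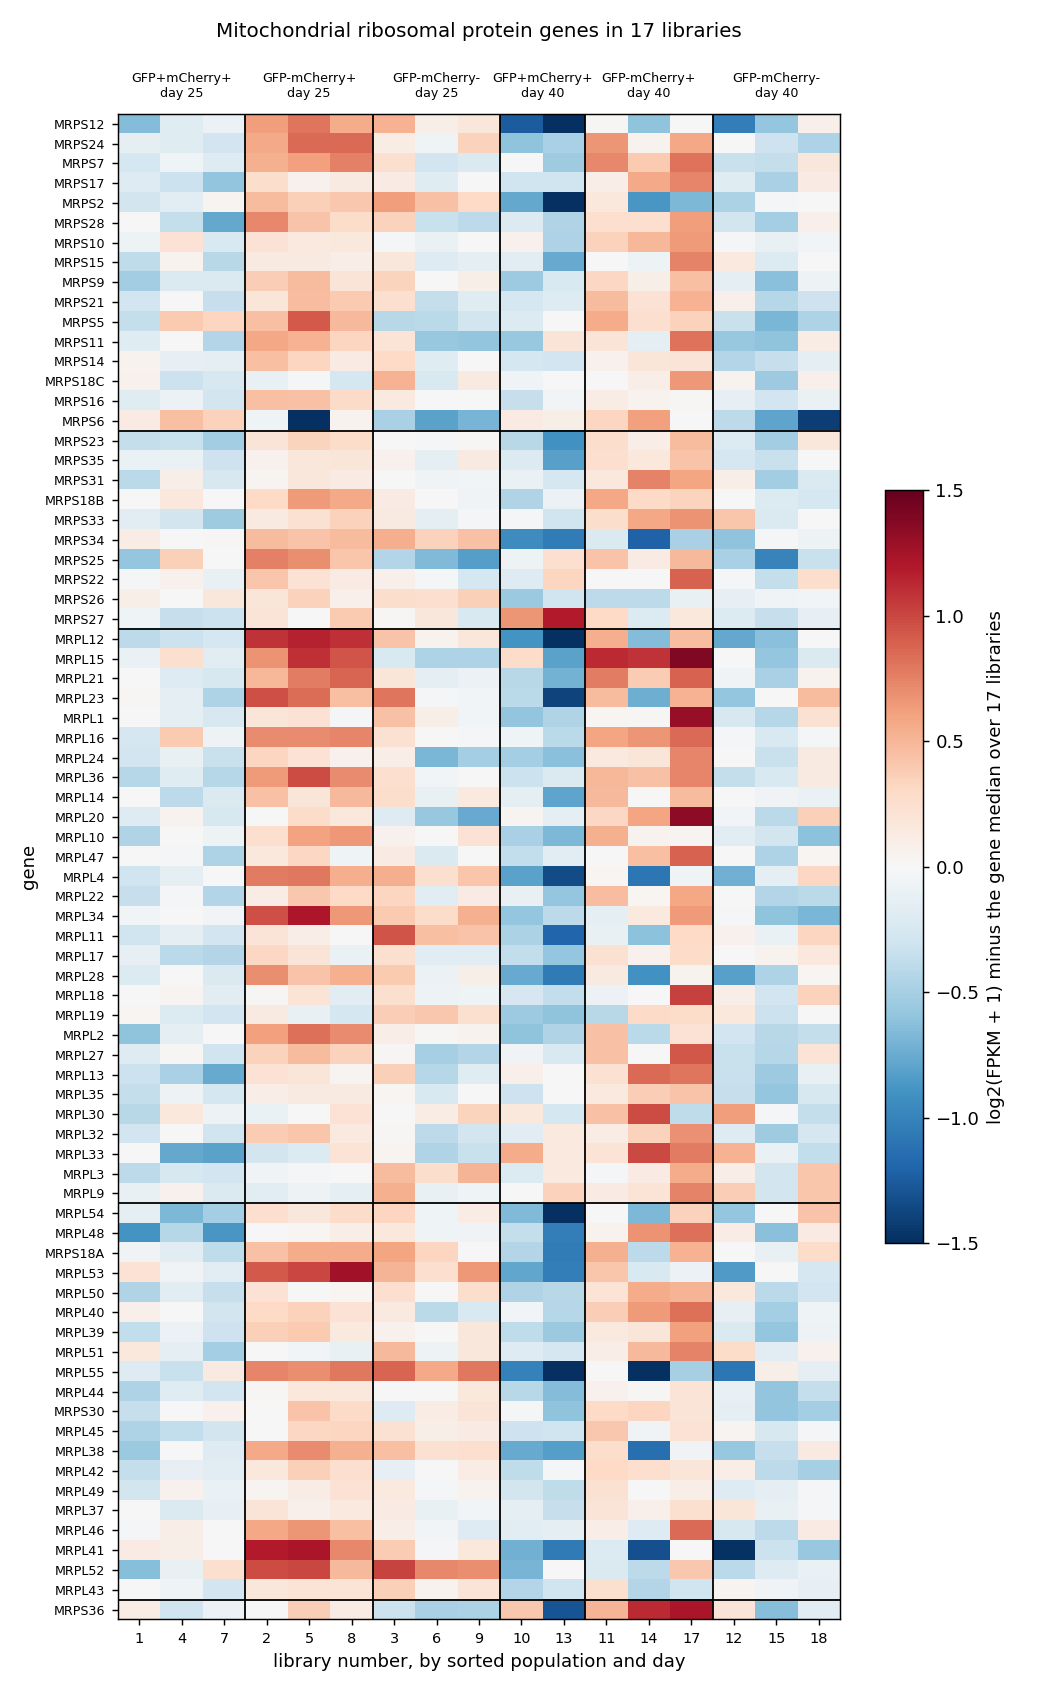
Each row is 1 of the 76 genes, in blocks by role, and each column 1 of the 17 libraries, ordered by population and day; colour is log2(FPKM + 1) minus the gene's median over the libraries. The GFP-mCherry+ columns are warm for most rows, while MRPS27 stands out as warm in the GFP+mCherry+ libraries of day 40.

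Over the 17 libraries the gene means spread from 10.2 FPKM for MRPL41 to 164 FPKM for MRPL51, with a median of 38.9 FPKM. After MRPL51, a large-subunit protein specific to mitochondria, the most abundant were MRPL33 (141 FPKM), MRPL52 (107 FPKM), MRPS6 (106 FPKM, or 113 FPKM, above MRPL52, over the 16 libraries without its listed zero), MRPL20 (99.2 FPKM) and MRPL9 (83.0 FPKM). The least abundant besides MRPL41 were MRPS10 (11.4 FPKM), MRPS17 (12.0 FPKM), MRPL46 (13.2 FPKM), MRPL50 (13.5 FPKM) and MRPL30 (14.4 FPKM). The group with the highest mean was GFP-mCherry+ at day 40 for 35 genes and GFP-mCherry+ at day 25 for 33, GFP-mCherry- at day 25 for 7, and GFP+mCherry+ at day 40 for MRPS27. The lowest mean lay in GFP+mCherry+ cells of day 40 for 47 genes and in those of day 25 for 12.

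In GFP+mCherry+ cells, set against GFP-mCherry+ cells at day 25, 29 of the 76 genes were lower and 0 were higher (limma, adjusted p under 0.05); of all 14845 genes tested, 8.38% were lower and 12% higher. The median log2 difference of the 76 was -0.53, against 0.06 for all genes tested, and 74 of the 76 differences were negative. In 59 genes every GFP+mCherry+ library lay below every GFP-mCherry+ library, which held for 19.2% of all genes tested. In 1 gene, MRPS6, every GFP+mCherry+ library lay above, against 23% of all genes. By role, the lower genes were 7 of the 16 small-subunit proteins with a bacterial counterpart, 3 of the 10 small-subunit proteins specific to mitochondria, 11 of the 29 large-subunit proteins with a bacterial counterpart and 8 of the 20 large-subunit proteins specific to mitochondria. The medians of these 4 classes were close, at -0.55, -0.43, -0.54 and -0.54. MRPS36 was not called, at -0.26.

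MRPL36, the counterpart of a small zinc-binding protein of the bacterial large subunit, had 12.9, 15.5 and 12.9 FPKM in GFP+mCherry+ libraries of day 25, against 28.1, 35.9 and 29.5 FPKM in GFP-mCherry+ libraries. The ranges lay far apart, with a log2 difference of -1.12 (SE 0.17, limma adjusted p = 0.000718). MRPL12, the counterpart of the bacterial stalk protein that recruits translation factors, had 19.6, 20.6 and 21.6 FPKM in GFP+mCherry+ libraries, against 56.1, 59.0 and 56.8 FPKM in GFP-mCherry+ libraries. Its difference of -1.43 (SE 0.35, limma adjusted p = 0.00956) was the lowest of the 76, and its libraries within each group were tight. MRPL12 overlaps SLC25A10 in hg19 (chr17, 79670387 to 79674556), so reads in bases shared by the pair cannot be told apart. MRPS24, the counterpart of a bacterial protein at the mRNA entry of the small subunit, had 47.4, 45.9 and 42.7 FPKM in GFP+mCherry+ libraries, against 77.8, 95.1 and 94.8 FPKM in GFP-mCherry+ libraries (log2 difference -0.96, SE 0.18, limma adjusted p = 0.00258). It overlaps the readthrough gene URGCP-MRPS24.

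MRPL2, whose bacterial counterpart lies at the peptidyl transferase centre, had 36.0, 50.3 and 55.3 FPKM in GFP+mCherry+ libraries of day 25, against 85.5, 99.2 and 91.0 FPKM in GFP-mCherry+ libraries (log2 difference -0.97, SE 0.20, limma adjusted p = 0.00389). MRPL53, a large-subunit protein specific to mitochondria, had 54.9, 45.4 and 41.6 FPKM in GFP+mCherry+ libraries, against 90.3, 95.5 and 114 FPKM in GFP-mCherry+ libraries (log2 difference -1.06, SE 0.22, limma adjusted p = 0.00428). MRPL34 had 38.02, 39.1 and 38.03 FPKM in GFP+mCherry+ libraries, against 77.6, 92.0 and 62.0 FPKM in GFP-mCherry+ libraries (log2 difference -0.97, SE 0.21, limma adjusted p = 0.00576). None of these ranges overlapped. MRPL21 was lower as well, by a log2 difference of -0.86 (SE 0.19, limma adjusted p = 0.00544). The calls of MRPL36, MRPS24, MRPL2, MRPL53, MRPL21, MRPL34 and MRPL12 held under every one of the 15 alternatives run. The count of lower genes was 10 without library 5, 15 without library 7, 16 without library 1, 17 without library 2 and 16 without library 8, and 44 after the GC correction.

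**Figure D2:**
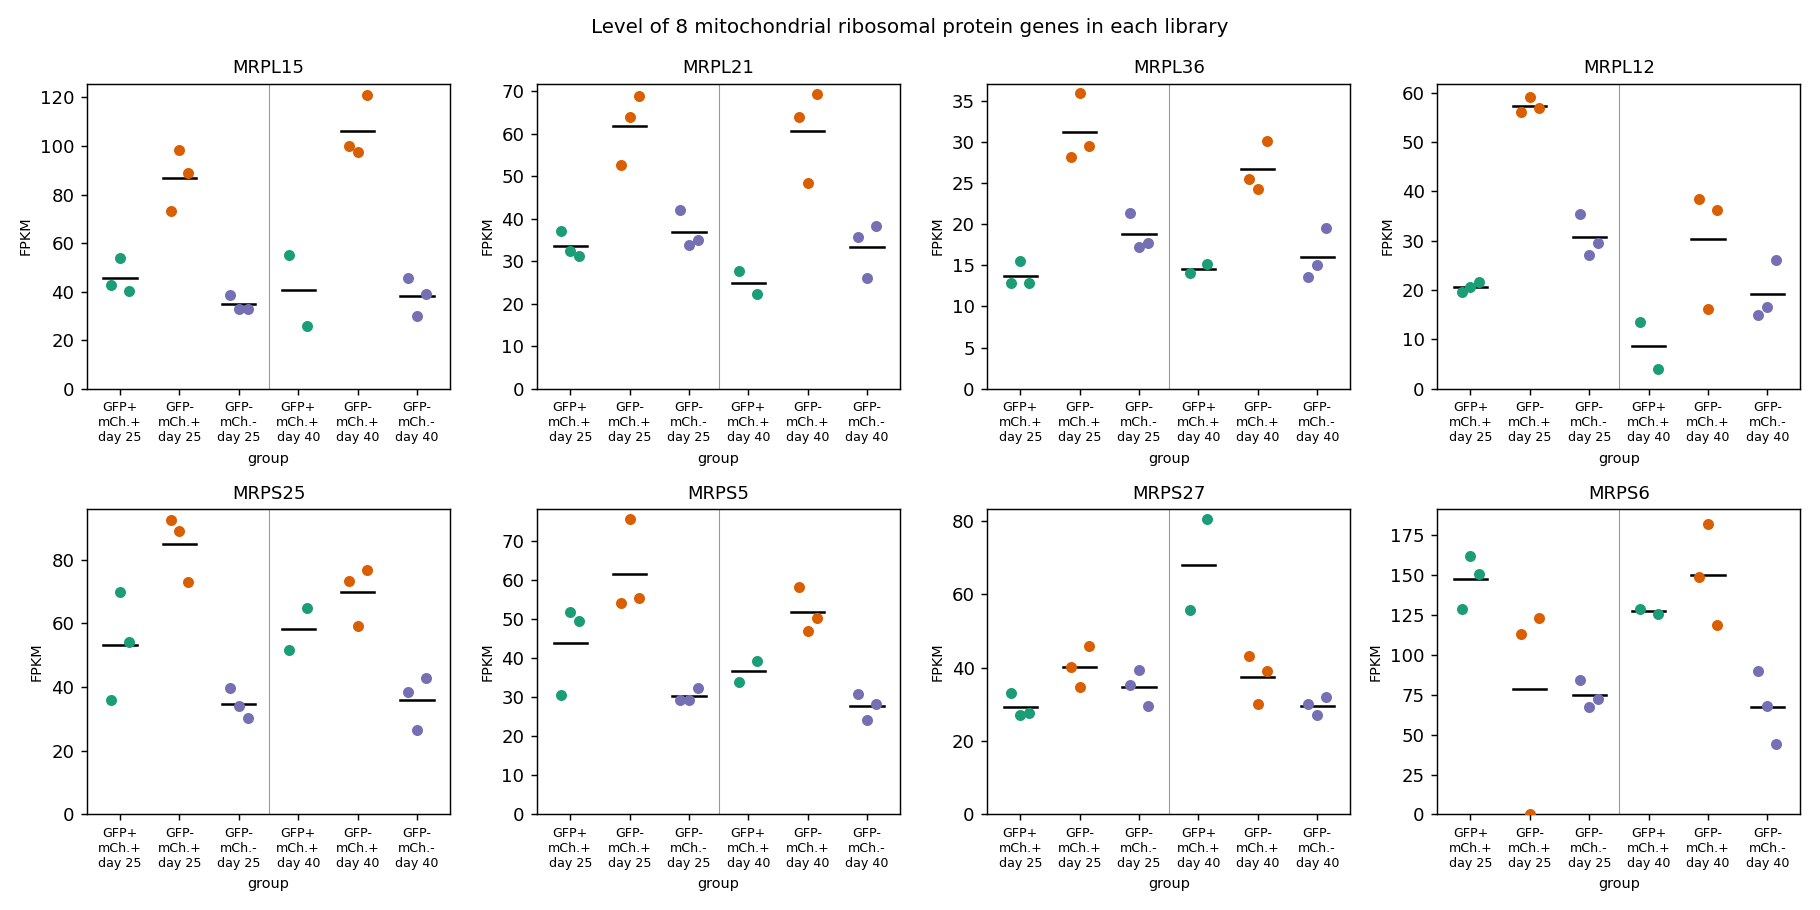
FPKM of 8 genes in each library by group (mCh. stands for mCherry), with points for libraries and bars for group means. MRPL12, MRPL15, MRPL21 and MRPL36 sit lower in GFP+mCherry+ than in GFP-mCherry+ libraries at both days, MRPS27 is highest in the GFP+mCherry+ libraries of day 40 (55.7 and 80.4 FPKM), and MRPS6 shows the listed zero of library 5.

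At day 40, 36 of the 76 genes were lower and 1, MRPS27, was higher in GFP+mCherry+ than in GFP-mCherry+ cells, where 9.29% of all genes tested were lower and 16.2% higher. The median log2 difference of the 76 was -0.67, against 0.08 for all genes, and 75 of the 76 differences were negative. In 51 genes both GFP+mCherry+ libraries lay below all 3 GFP-mCherry+ libraries, against 18.9% of all genes tested, and for MRPS27 both lay above all 3, against 26.5%. The lower genes were 7 of 16 small-subunit proteins with a bacterial counterpart (median -0.68), 5 of 10 small-subunit proteins specific to mitochondria (-0.51), 14 of 29 large-subunit proteins with a bacterial counterpart (-0.70), 9 of 20 large-subunit proteins specific to mitochondria (-0.61), and MRPS36. The count moved with library 13, which stood apart, and with the samples in the fit. It was 6 lower genes without library 13, 10 without libraries 13 and 14, 21 lower and 1 higher without library 17, and 2 with only the compared groups in the fit. The median without libraries 13 and 14 was -0.64.

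MRPL15, the counterpart of a bacterial protein in the core of the large subunit, had 55.3 and 25.7 FPKM in GFP+mCherry+ libraries of day 40, against 99.9, 97.5 and 121 FPKM in GFP-mCherry+ libraries (log2 difference -1.46, SE 0.27, limma adjusted p = 0.00136). Library 13 was the lower of the pair, but library 10 also lay below all GFP-mCherry+ libraries; without library 13 the difference of MRPL15 was -0.92 (limma adjusted p = 0.0408). MRPL21 had 27.6 and 22.3 FPKM in GFP+mCherry+ libraries, against 63.9, 48.4 and 69.5 FPKM in GFP-mCherry+ libraries (log2 difference -1.24, SE 0.21, limma adjusted p = 0.000899). The calls of MRPL15 and MRPL21 held under all 14 alternatives run, and that of MRPS24 (-0.98, SE 0.20, limma adjusted p = 0.0032) under 13, being lost with only the compared groups in the fit. MRPL12 had 13.5 and 3.92 FPKM in GFP+mCherry+ libraries, against 38.5, 16.2 and 36.2 FPKM in GFP-mCherry+ libraries, with libraries 13 and 14 the lowest of their groups. Its difference of -1.80 (SE 0.39, limma adjusted p = 0.00373) was -1.02 without library 13 (adjusted p = 0.119).

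MRPL16, whose bacterial counterpart helps place tRNA on the large subunit, had 26.9 and 21.0 FPKM in GFP+mCherry+ libraries of day 40, against 43.1, 45.2 and 51.4 FPKM in GFP-mCherry+ libraries (log2 difference -0.94, SE 0.19, limma adjusted p = 0.00289). MRPS23, a small-subunit protein specific to mitochondria, had 28.8 and 20.2 FPKM in GFP+mCherry+ libraries, against 46.6, 41.6 and 54.4 FPKM in GFP-mCherry+ libraries (log2 difference -0.94, SE 0.20, limma adjusted p = 0.00377). Neither pair of ranges overlapped, yet both calls were lost without library 13, at -0.77 for MRPL16 (limma adjusted p = 0.0615) and -0.70 for MRPS23 (limma adjusted p = 0.0919). The comparisons of the 2 days share no library, but 1 fit gave both, with a shared estimate of each gene's spread. How many of all genes tested were lower, or had negative differences, in both was not counted. Among the 76, 19 genes were lower in both, 65.5% of the 29 at day 25 and 52.8% of the 36 at day 40. They were MRPL10, MRPL12, MRPL14, MRPL15, MRPL16, MRPL21, MRPL34, MRPL36, MRPL39, MRPL48, MRPL53, MRPS7, MRPS9, MRPS12, MRPS18A, MRPS21, MRPS23, MRPS24 and MRPS33. Across the genes the differences of the days had r = 0.38 (76 genes, from separate libraries; 0.43 without MRPS6), and 73 were negative at both.

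Some lists of cell type markers differed in this comparison as well. The 10 cardiomyocyte markers summed to 6200.5 to 15080 FPKM in GFP+mCherry+ libraries of day 25, against 22423 to 29321 FPKM in GFP-mCherry+ libraries, and 6 of the 10 were lower in GFP+mCherry+ cells. At day 40 they summed to 6844.3 to 11345 FPKM in GFP+mCherry+ libraries, against 18179 to 30743 FPKM in GFP-mCherry+ libraries, with 7 of 10 lower. The 9 stromal markers, mostly collagens and other matrix genes, summed to 10146 to 16214 FPKM in GFP+mCherry+ libraries of day 25, against 3443.2 to 4043.5 FPKM in GFP-mCherry+ libraries, and 5 of 9 were higher. At day 40 the stromal sums were 12826 to 14872 FPKM in GFP+mCherry+ libraries, against 2387 to 9743.8 FPKM in GFP-mCherry+ libraries, with 6 of 9 higher. Epithelial, endothelial and blood markers were higher in 3 of 5, 2 of 3 and 1 of 5 tested at day 25 and in 1 of 5, 2 of 3 and 4 of 5 at day 40. Of 7 cycling markers 0 were called at either day. Of all genes tested, 12% were higher and 8.38% lower at day 25, and 16.2% and 9.29% at day 40. Blood markers at day 25 and epithelial markers at day 40 were thus near the share of all genes. Among the stromal and cardiomyocyte markers, FN1 was listed at 0 in libraries 7 and 8 and MYH6 in library 17, while the rest of their groups held at least 520.47 FPKM. Without FN1 the 8 other stromal markers summed to 8532.1 to 14169 FPKM in GFP+mCherry+ libraries of day 25, against 2921.6 to 4043.5 FPKM in GFP-mCherry+ libraries, and the counts of markers called between these populations were the same with the zeros missing. The part of cell makeup in the differences of mitochondrial ribosomal protein genes was not tested, and in bulk RNA fewer cells of a type and less RNA per cell cannot be told apart.

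**Figure D3:**
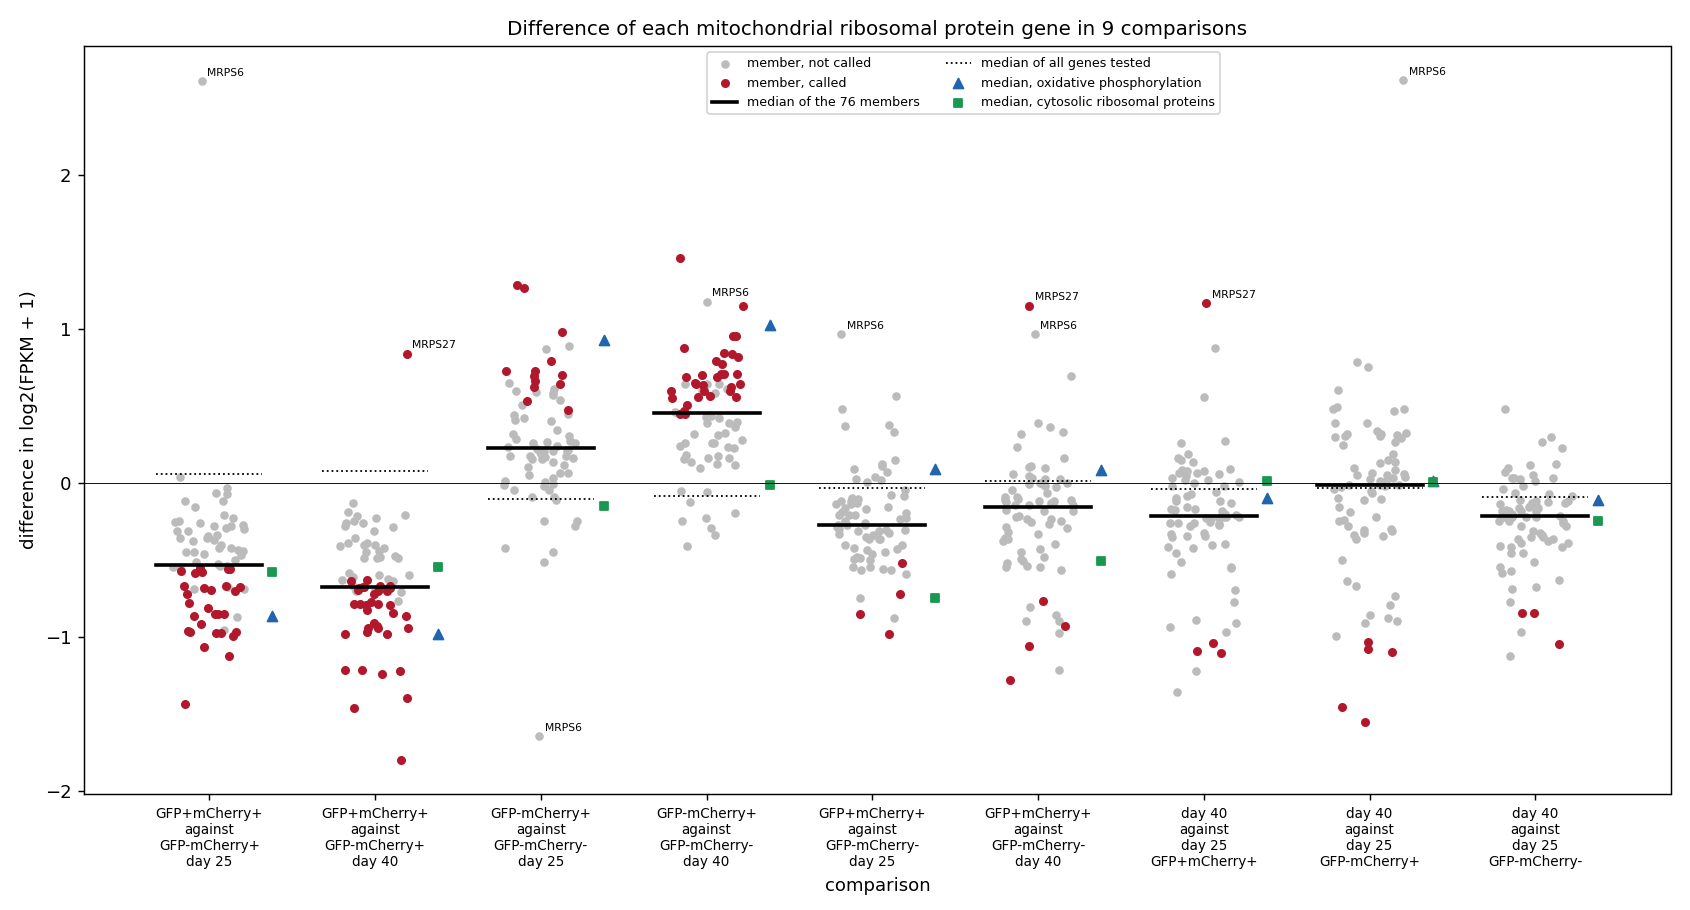
Log2 differences of the 76 genes in 9 comparisons, 1 point a gene, red where limma called it and grey where not; the black line is the median of the 76, the dotted line that of all genes tested, the blue triangle that of oxidative phosphorylation genes and the green square that of cytosolic ribosomal protein genes. The median of the 76 lies at -0.53 and -0.67 in GFP+mCherry+ against GFP-mCherry+ cells and at 0.23 and 0.46 in GFP-mCherry+ against GFP-mCherry- cells.

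Between the cells without GFP, GFP-mCherry+ cells had higher levels than GFP-mCherry- cells for 13 of the 76 genes at day 25 and for 32 at day 40, and lower levels for 0 at either day. Of all genes tested, 12.1% were higher and 16.4% lower at day 25, and 13.3% were higher and 18.5% lower at day 40, so the count of day 25 was close to the share of all genes and that of day 40 well above it. The median log2 difference of the 76 was 0.23 at day 25, against -0.10 for all genes, and 0.46 at day 40, against -0.09. All 3 GFP-mCherry+ libraries lay above all 3 GFP-mCherry- libraries for 33 genes at day 25 and 32 at day 40, where 20.4% and 17.5% of all genes tested did. They lay below for 3 genes at day 25 and 0 at day 40, where 29.3% and 22.6% of all genes did. At day 25 the higher genes were 4 of 16 and 2 of 10 in the small subunit (bacterial counterpart and mitochondria-specific), 7 of 29 large-subunit proteins with a bacterial counterpart and 0 of 20 specific to mitochondria. At day 40 they were 8 of 16, 4 of 10, 13 of 29 and 6 of 20 in the same classes, and MRPS36. The count of day 25 was 7 without library 5, 6 without library 6 and 7 without library 9, 24 with median-of-ratios scaling and 20 after the GC correction. The count of day 40 was 13 without library 15, 16 without library 17 and 13 with only the compared groups in the fit.

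MRPL15 had 73.3, 98.5 and 88.7 FPKM in GFP-mCherry+ libraries of day 25, against 38.7, 32.8 and 32.8 FPKM in GFP-mCherry- libraries (log2 difference 1.29, SE 0.24, limma adjusted p = 0.000726). At day 40 the difference from the GFP-mCherry- libraries, which had 45.5, 30.01 and 39.0 FPKM, was 1.46 (SE 0.24, limma adjusted p = 0.000259), the largest of the 76. MRPS25, a small-subunit protein specific to mitochondria, had 92.5, 88.9 and 72.9 FPKM in GFP-mCherry+ libraries of day 25, against 39.8, 34.0 and 30.2 FPKM in GFP-mCherry- libraries (log2 difference 1.27, SE 0.23, limma adjusted p = 0.000689). The groups of both genes lay far apart. MRPS25 overlaps NR2C2 in hg19 (chr3, 15083967 to 15106842). MRPS5, the counterpart of a bacterial protein near the mRNA entry, had 54.0, 75.5 and 55.4 FPKM in GFP-mCherry+ libraries of day 25, against 29.3, 29.4 and 32.5 FPKM in GFP-mCherry- libraries (log2 difference 0.98, SE 0.20, limma adjusted p = 0.00151). At day 40 MRPS5 had 58.1, 46.9 and 50.3 FPKM in GFP-mCherry+ libraries, against 30.9, 24.2 and 28.3 FPKM in GFP-mCherry- libraries (log2 difference 0.87, SE 0.20, limma adjusted p = 0.00329).

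In GFP+mCherry+ libraries of day 25, MRPS5 had 30.5, 51.9 and 49.5 FPKM and MRPS25 had 35.8, 70.0 and 54.3 FPKM. Library 1 lay within the range of the GFP-mCherry- libraries for both genes, and neither was called between these populations. MRPL36 was higher in GFP-mCherry+ than in GFP-mCherry- cells at day 25, where GFP-mCherry- libraries had 21.3, 17.2 and 17.7 FPKM (log2 difference 0.70, SE 0.17, limma adjusted p = 0.00589). MRPL21, with 42.0, 33.8 and 34.9 FPKM in GFP-mCherry- libraries, differed by 0.73 (SE 0.19, limma adjusted p = 0.00788), and MRPL16, with 33.2, 28.1 and 27.5 FPKM there, by 0.65 (SE 0.17, limma adjusted p = 0.01). The 6 calls with the smallest adjusted p of day 25 held under all 15 alternatives.

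At day 40, MRPL13, the counterpart of a bacterial large-subunit protein, had 64.1, 99.5 and 96.3 FPKM in GFP-mCherry+ libraries, against 43.3, 37.2 and 50.4 FPKM in GFP-mCherry- libraries (log2 difference 0.96, SE 0.21, limma adjusted p = 0.00289). MRPL40, a large-subunit protein specific to mitochondria, had 28.5, 34.5 and 39.6 FPKM in GFP-mCherry+ libraries, against 20.0, 15.1 and 21.0 FPKM in GFP-mCherry- libraries (log2 difference 0.84, SE 0.19, limma adjusted p = 0.00357). Neither gene's groups overlapped. MRPL16 differed by 0.79 (SE 0.17, limma adjusted p = 0.00237) and MRPL21 by 0.84 (SE 0.19, limma adjusted p = 0.00277), and these 6 calls of day 40 held under all 15 alternatives. The days share no library but share the fit, and how many of all genes tested were higher or positive at both was not counted. Of the 76, 11 genes were higher at both, 84.6% of the 13 and 34.4% of the 32: MRPL15, MRPL16, MRPL21, MRPL27, MRPL32, MRPL36, MRPS5, MRPS7, MRPS18B, MRPS24 and MRPS25. Differences were positive at both days for 57 genes, with r = 0.37 across the 76 and 0.60 without MRPS6. The cardiomyocyte markers were higher in 10 of 10 and 9 of 10 in the same contrast and the stromal markers lower in 7 of 9 at each day (10 of 10 and 8 of 9 at day 40 with the listed zeros missing), and their part in it was not tested.

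Between GFP+mCherry+ and GFP-mCherry- cells fewer of these genes were called than in the other population comparisons, as was true of all genes tested. The median at day 25 was not smaller in size than the 0.23 of GFP-mCherry+ against GFP-mCherry- cells. At day 25, 4 of the 76 were lower in GFP+mCherry+ cells and 0 higher, where 5.27% of all genes tested were lower and 5.78% higher, with a median of -0.27 (all genes -0.03). GFP+mCherry+ libraries lay below all GFP-mCherry- libraries for 31 genes and above them for 3, against 20.1% and 15.7% of all genes tested. MRPL3, the counterpart of a protein near the bacterial peptidyl transferase centre, had 39.0, 43.4 and 41.9 FPKM in GFP+mCherry+ libraries, against 71.7, 61.8 and 73.9 FPKM in GFP-mCherry- libraries (log2 difference -0.72, SE 0.19, limma adjusted p = 0.0214). MRPL11, the counterpart of the stalk-base protein, had 19.7, 21.9 and 19.8 FPKM in GFP+mCherry+ libraries, against 47.6, 33.7 and 33.2 FPKM in GFP-mCherry- libraries (log2 difference -0.85, SE 0.23, limma adjusted p = 0.029). The groups of both genes were separate. MRPL52 (-0.98, SE 0.26, limma adjusted p = 0.0224) and MRPL45, known to tether the ribosome to the inner membrane (-0.52, SE 0.16, limma adjusted p = 0.0448), were the other 2. The count was at most 2 without any 1 of the 6 libraries: 0 without library 3 or 9, 1 without library 4, 6 or 7, and 2 higher without library 1.

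At day 40, 1 gene was higher and 4 were lower in GFP+mCherry+ than in GFP-mCherry- cells, against 7.04% and 4.76% of all genes tested, with a median of -0.16 (all genes 0.02). Both GFP+mCherry+ libraries lay above all 3 GFP-mCherry- libraries for 6 genes and below them for 23, against 21.8% and 19.8% of all genes tested. The lower genes were MRPS2 (-1.05, SE 0.29, limma adjusted p = 0.0276), MRPL11 (-0.93, SE 0.26, limma adjusted p = 0.0311), MRPL54 (-1.28, SE 0.36, limma adjusted p = 0.033) and MRPS34 (-0.76, SE 0.24, limma adjusted p = 0.0495). MRPL11 had 17.3 and 10.1 FPKM in GFP+mCherry+ libraries, against 25.6, 22.7 and 30.7 FPKM in GFP-mCherry- libraries, and was lower at both days. MRPL54 had 11.7 and 4.06 FPKM in GFP+mCherry+ libraries, against 12.5, 19.1 and 26.1 FPKM in GFP-mCherry- libraries. Library 13 was the lowest of the 17 for MRPL54. Without library 13 the differences were -0.60 for MRPS2, -0.57 for MRPL11 and -0.61 for MRPL54. Called were 0 genes without library 13, 10 without library 12, 2 without library 15, 1 without library 18 and 1 without libraries 13 and 14.

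MRPS27, a pentatricopeptide-repeat protein of the small subunit that is specific to mitochondria, moved against most of the other genes at day 40. At day 40 it had 55.7 and 80.4 FPKM in GFP+mCherry+ libraries, 43.2, 29.98 and 39.0 FPKM in GFP-mCherry+ libraries and 29.9, 27.1 and 31.9 FPKM in GFP-mCherry- libraries. At day 25 it had 33.2, 27.1 and 27.7 FPKM in GFP+mCherry+ libraries, 40.0, 34.8 and 46.0 FPKM in GFP-mCherry+ libraries and 35.3, 39.3 and 29.6 FPKM in GFP-mCherry- libraries. The GFP+mCherry+ libraries were thus the highest at day 40, with library 13 above library 10, and among the lowest at day 25. A change between days in the MRPS27 difference from GFP-mCherry+ cells was not called. At day 40 the differences were 0.84 against GFP-mCherry+ (SE 0.21, limma adjusted p = 0.0083) and 1.15 against GFP-mCherry- cells (SE 0.21, limma adjusted p = 0.00253), comparisons that share the GFP+mCherry+ libraries. Without library 13 these were 0.58 (adjusted p = 0.169) and 0.89 (adjusted p = 0.0603). MRPS27 overlaps PTCD2 in hg19 (chr5, 71515236 to 71616473).

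MRPS36 had 81.1 and 24.3 FPKM in GFP+mCherry+ libraries of day 40, 87.1, 134 and 144 FPKM in GFP-mCherry+ libraries and 70.1, 38.9 and 54.4 FPKM in GFP-mCherry- libraries. Its difference was -1.39 in GFP+mCherry+ against GFP-mCherry+ (SE 0.37, limma adjusted p = 0.0114) and 1.15 in GFP-mCherry+ against GFP-mCherry- cells (SE 0.33, limma adjusted p = 0.0138), and library 13 was far below library 10. Without library 13 the MRPS36 difference from GFP-mCherry+ cells was -0.55 and not called (limma adjusted p = 0.331), and without library 10 it was -2.24 (limma adjusted p = 0.000434). Against GFP-mCherry- cells the GFP-mCherry+ call of MRPS36 was lost without library 15 or 17 (0.93 and 1.01, limma adjusted p = 0.0739 and 0.0558). Humans have 3 genes related to the single bacterial protein S18, whose products occupy different places in the ribosome. In the counts by role, MRPS18A and MRPS18B were placed among the proteins specific to mitochondria and MRPS18C among those with a bacterial counterpart. MRPS18A had 20.2, 18.5 and 15.8 FPKM in GFP+mCherry+ libraries of day 25, against 28.7, 31.3 and 31.3 FPKM in GFP-mCherry+ libraries (log2 difference -0.72, SE 0.24, limma adjusted p = 0.0483), a call lost without any 1 of the 6 libraries. MRPS18B differed by -0.45 (adjusted p = 0.0518) at day 25 and by -0.68 (adjusted p = 0.00983) at day 40 in the limma fit. MRPS18C differed by -0.03 (adjusted p = 0.943) and -0.28 (adjusted p = 0.442), and a difference between the 3 genes was not tested.

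The listed zero sits at MRPS6, the counterpart of a bacterial small-subunit protein (ENSG00000243927; hg19 chr21, 35445524 to 35515334). It had 129, 162 and 151 FPKM in GFP+mCherry+, 113, 0 and 123 FPKM in GFP-mCherry+ and 84.1, 67.5 and 72.5 FPKM in GFP-mCherry- libraries of day 25. At day 40 it had 129 and 126 FPKM in GFP+mCherry+, 149, 182 and 118 FPKM in GFP-mCherry+ and 89.9, 68.1 and 43.9 FPKM in GFP-mCherry- libraries. Every other library held at least 43.9 FPKM, and the mCherry+ libraries other than library 5 all lay above the GFP-mCherry- libraries. SLC5A3, the inositol transporter gene that overlaps MRPS6, was also listed at 0 in library 5, with 8.28 and 4.98 FPKM in the other GFP-mCherry+ libraries of day 25. These values are sums of more than 1 row at nearly the same place, so the same reads may be counted again. With a value under 5 FPKM, SLC5A3 is outside the count of zeros that follows. Such zeros, in 1 library while the rest of the group held at least 5 FPKM, numbered 41 values in 33 genes and 14 libraries, 3 of them in library 5, and MRPS6 was the 1 mitochondrial ribosomal protein gene among them.

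As deposited, MRPS6 differed by 2.61 between GFP+mCherry+ and GFP-mCherry+ cells at day 25 (SE 1.17, limma adjusted p = 0.127), the highest value of the 76 genes and not called. Treating that zero as missing gave 0.31 (adjusted p = 0.415). Without library 2 or library 8 it was 3.73 or 3.79 and was called (adjusted p = 0.0447 and 0.0461). Between GFP-mCherry+ and GFP-mCherry- cells of day 25 the deposited values gave -1.64 (limma adjusted p = 0.326) and the values without the zero 0.66 (adjusted p = 0.0633), so the sign turned with that 1 value. At day 40, where no value was 0, the difference was 1.18 either way, with limma adjusted p = 0.478 in the fit that holds the zero and 0.00104 in the fit with the zero missing.

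Between days few of the genes were called. In GFP+mCherry+ cells 1 was higher and 3 were lower at day 40 than at day 25, where 2.18% of all genes tested were higher and 1.88% lower, with a median of -0.21 (all genes -0.04). Day 40 libraries lay above all those of day 25 for 4 genes and below them for 27, against 13% and 20.9% of all genes tested. MRPS27 was the higher one, by 1.17 (SE 0.21, limma adjusted p = 0.00371; 0.91 with adjusted p = 0.102 without library 13). MRPS34, a small-subunit protein specific to mitochondria, had 20.5 and 18.9 FPKM at day 40, against 43.5, 40.2 and 40.6 FPKM at day 25 (log2 difference -1.04, SE 0.24, limma adjusted p = 0.0219). MRPS12, the counterpart of a protein of the bacterial decoding centre, had 5.90 and 4.55 FPKM at day 40, against 9.50, 13.5 and 14.4 FPKM at day 25 (-1.10, SE 0.29, limma adjusted p = 0.0458). MRPS2 was lower by a log2 difference of -1.09 (SE 0.29, limma adjusted p = 0.0461; -0.63 without library 13). The ranges of MRPS34 and MRPS12 did not overlap. Called were 0 genes without library 13, 1 without library 4, 1 without library 7 and 1 after the GC correction.

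In GFP-mCherry+ cells 5 genes were lower at day 40 than at day 25 and 0 higher, where 3.91% of all genes tested were lower and 0.633% higher, with a median of -0.01 (all genes -0.03). Day 40 libraries lay above all those of day 25 for 10 genes and below them for 15, against 6.24% and 14.2% of all genes tested. MRPL41, a large-subunit protein specific to mitochondria, had 8.16, 3.24 and 9.60 FPKM at day 40, against 23.2, 23.7 and 16.4 FPKM at day 25 (log2 difference -1.55, SE 0.32, limma adjusted p = 0.0148). MRPS34 had 34.6, 16.8 and 28.5 FPKM at day 40, against 56.5, 54.3 and 56.2 FPKM at day 25 (-1.10, SE 0.21, limma adjusted p = 0.0118). Library 14 was the lowest for both. The other 3 were MRPL53 (-1.03), MRPL55 (-1.46) and MRPL4 (-1.08), with limma adjusted p = 0.0165, 0.0269 and 0.0413. Called were 0 genes without library 2, 5 or 14, 3 without library 17, 11 lower and 2 higher without library 11, and 0 after the GC correction, where MRPL41 differed by -0.23.

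In GFP-mCherry- cells 3 genes were lower at day 40 than at day 25 and 0 higher, where 2.32% of all genes tested were lower and 1.56% higher (3.87% either way), with a median of -0.21 (all genes -0.09). Day 40 libraries lay below all those of day 25 for 23 genes and above them for 0, against 16.9% and 9.44% of all genes tested. They were MRPL52 (-1.04, SE 0.26), MRPL34 (-0.84, SE 0.21) and MRPL53 (-0.84, SE 0.22), with limma adjusted p = 0.0349, 0.0391 and 0.0455. MRPL52 had 66.7, 77.5 and 82.5 FPKM at day 40, against 179, 147 and 144 FPKM at day 25, and the ranges did not overlap. The count was 0 without library 3, 6 or 9, 1 without library 12, 15 or 18, and 7 without libraries 13 and 14.

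The differences between days moved with the base composition of the transcripts. GC content ran from 35.0% in MRPL50 to 71.9% in MRPL41, with a median of 50.5%. Across the 76 genes it had r = -0.63 with the day difference in GFP+mCherry+ cells, -0.65 in GFP-mCherry+ cells and -0.42 in GFP-mCherry- cells, values that share the genes and their GC content. Across all 14533 genes with a GC value r was -0.33, -0.55 and -0.16. The 13 genes of at least 60% GC had a median day difference of -0.93 in GFP+mCherry+, -0.87 in GFP-mCherry+ and -0.62 in GFP-mCherry- cells, against -0.07, 0.19 and -0.20 for the 35 genes under 50% GC. Blood markers moved between days as well: the 5 summed to 67.375 to 149.84 FPKM at day 40 in GFP+mCherry+ libraries, against 14.56 to 17.5 FPKM at day 25, and to 20.884 to 32.38 FPKM in GFP-mCherry+ libraries, against 1.3961 to 10.132 FPKM, with 5 and 3 of 5 higher at day 40. Their part in the day differences was not tested. The part of base composition in the day differences was not tested beyond the GC correction, under which the calls fell to 1, 0 and 1. Between populations of a day r was -0.32 and -0.10 in GFP+mCherry+ against GFP-mCherry+ cells (day 25 and day 40). It was 0.21 and -0.46 in GFP-mCherry+ against GFP-mCherry- cells and -0.18 and -0.47 in GFP+mCherry+ against GFP-mCherry- cells. At day 40 the medians of these last comparisons were -0.05 and -0.86 for the 13 genes of at least 60% GC. For the 35 genes under 50% GC they were 0.56 and -0.11.

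**Figure D4:**
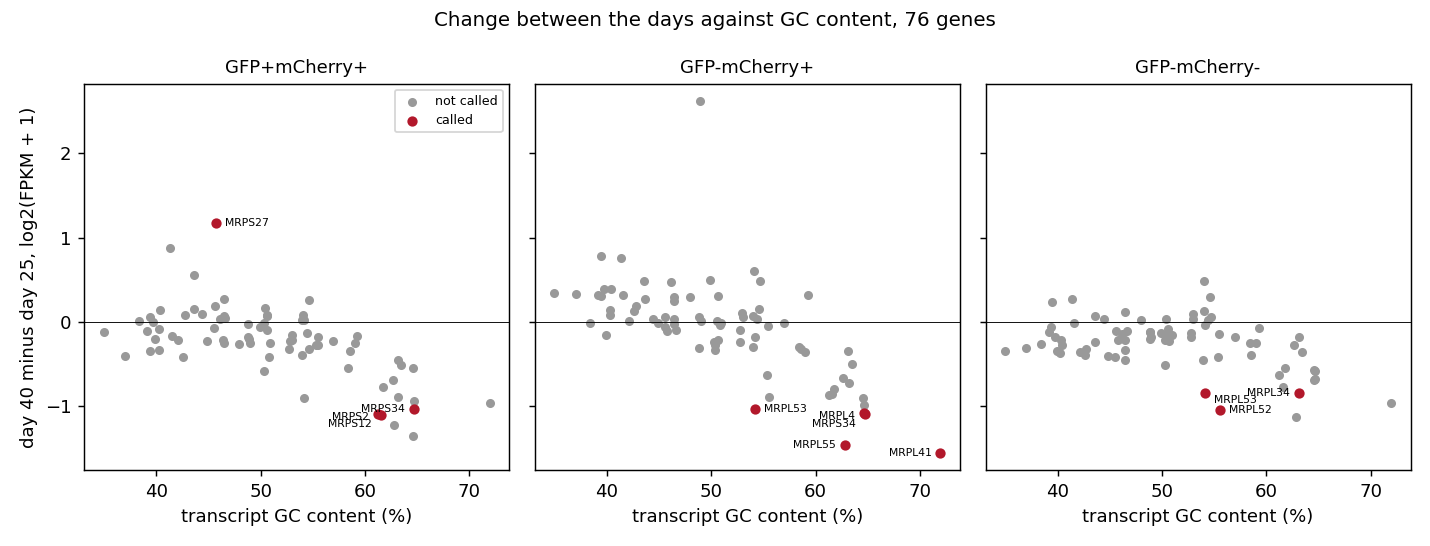
Log2 difference of day 40 against day 25 (vertical axis) and transcript GC content in percent (horizontal axis) for the 76 genes, 1 panel for each population. Genes of high GC content, such as MRPL41 at 71.9%, lie low in all 3 panels, with r = -0.63, -0.65 and -0.42.

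Whether the population differences changed between days was tested as an interaction. For GFP+mCherry+ against GFP-mCherry+ cells 0 of the 76 genes were called in limma (2 at an unadjusted p under 0.05; 0.0135% of all genes tested were called), and 2 were called without library 10. For GFP-mCherry+ against GFP-mCherry- cells 0 were called (5 at an unadjusted p under 0.05; 0.00674% of all genes), so the larger count of day 40 is not shown to be a change of the difference. Smallest adjusted p-values over the 76 genes were 0.12 and 0.615.

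Most pairs of the genes varied together over the 17 libraries, which share their group differences and library-wide shifts. Pairs of other genes were not examined, so whether this is particular to the 76 is not known. The median pairwise r of log2(FPKM + 1) was 0.52 over 2850 pairs, from -0.65 to 0.97, and 252 pairs were negative. With the mean of the other genes the median r was 0.73, highest for MRPL39 (0.94), MRPL21 (0.94) and MRPS23 (0.92). In 13 genes it was under 0.5, lowest for MRPS27 (-0.13), MRPL30 (0.04), MRPS6 (0.05, over the 16 libraries without the zero), MRPL33 (0.13) and MRPL9 (0.18). MRPL33 and MRPL9 are among the most abundant of the 76. MRPL33 had 195 and 147 FPKM in GFP+mCherry+, 153, 264 and 228 FPKM in GFP-mCherry+ and 191, 124 and 102 FPKM in GFP-mCherry- libraries of day 40, groups that overlap, and it overlaps BRE and RBKS. MRPL9 differed by 0.04 and -0.18 in GFP+mCherry+ against GFP-mCherry+ cells (day 25 and day 40) and by -0.25 and 0.18 in GFP-mCherry+ against GFP-mCherry- cells, none of them called.

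Nuclear genes of the oxidative phosphorylation complexes, whose mitochondrial partners these ribosomes make, differed in more of their members. Of 77 tested, 64 were lower in GFP+mCherry+ than in GFP-mCherry+ cells at day 25 and 66 at day 40, with medians of -0.86 and -0.98. In GFP-mCherry+ against GFP-mCherry- cells 62 and 64 were higher, with medians of 0.93 and 1.02, and in GFP+mCherry+ against GFP-mCherry- cells 0 and 1 were lower, with medians of 0.09 and 0.08. Among them NDUFC1 of complex I differed by -1.04 and -1.19 in GFP+mCherry+ against GFP-mCherry+ cells (limma adjusted p = 0.000726 and 0.000459), and COX6A2, the heart and muscle form of a cytochrome c oxidase subunit, by -2.96 and -1.85 (limma adjusted p = 0.000471 and 0.00981). The 76 cytosolic ribosomal protein genes tested had another profile: 27 and 20 were lower in GFP+mCherry+ than in GFP-mCherry+ cells (medians -0.58 and -0.54), and 0 and 1 were higher in GFP-mCherry+ than in GFP-mCherry- cells (medians -0.15 and -0.01). In GFP+mCherry+ against GFP-mCherry- cells 42 and 21 were lower, and 1 was higher at day 40 (medians -0.74 and -0.51). Of all genes tested, 8.38% and 9.29% were lower in GFP+mCherry+ than in GFP-mCherry+ cells, and 12.1% and 13.3% higher in GFP-mCherry+ than in GFP-mCherry- cells. In GFP+mCherry+ against GFP-mCherry- cells 5.27% and 4.76% of all genes were lower, and 7.04% higher at day 40. Comparisons of a day share libraries, and differences between these lists and the 76 genes were not tested.

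Other genes of mitochondrial translation are given by list, to be read against 8.38% of all genes tested lower in GFP+mCherry+ than in GFP-mCherry+ cells at day 25 and 9.29% at day 40, and 12.1% and 13.3% higher in GFP-mCherry+ than in GFP-mCherry- cells. Of 14 translation factors, 1 was lower in GFP+mCherry+ than in GFP-mCherry+ cells at day 25 and 4 at day 40, and 3 and 5 were higher in GFP-mCherry+ than in GFP-mCherry- cells. TUFM, the elongation factor that delivers tRNA, had 124, 137 and 139 FPKM in GFP+mCherry+ libraries of day 25, against 276, 237 and 246 FPKM in GFP-mCherry+ libraries (log2 difference -0.92, SE 0.19, limma adjusted p = 0.00438), and was called in all 4 comparisons, though not at day 40 against GFP-mCherry+ cells without library 13 (limma adjusted p = 0.0575). Of 17 mitochondrial aminoacyl-tRNA synthetases, 2 and 2 were lower in GFP+mCherry+ than in GFP-mCherry+ cells and 1, RARS2, was higher at day 40 (not without library 11, 13 or 17), while 2 and 4 were higher in GFP-mCherry+ than in GFP-mCherry- cells. IARS2, the isoleucyl synthetase, was among them in each case (-0.87 and -1.18, then 0.89 and 0.87), and without library 13 its day 40 value against GFP-mCherry+ cells was -0.78 and not called. Of 20 assembly and rRNA modification genes, 1 and 5 were lower in GFP+mCherry+ cells and 2 and 3 higher in GFP-mCherry+ against GFP-mCherry- cells, so the counts of day 25 lay below the shares of all genes. Of 12 genes of mitochondrial transcription and mRNA stability, 0 and 3 were lower in GFP+mCherry+ cells, those of day 40 being TFAM (-1.01), LRPPRC (-0.69) and SLIRP (-1.03), none of them called without library 13 (-0.64, -0.74 and -0.94), and 0 and 2 higher in GFP-mCherry+ cells. The last list held 8 genes, ribosome subunits under other symbols and OXA1L, which is not itself a subunit. Of these 8, 1 and 2 were lower in GFP+mCherry+ cells, with MRP63 at -0.98 at day 25 (SE 0.17, limma adjusted p = 0.00182). In GFP-mCherry+ against GFP-mCherry- cells 1 and 0 were higher, and the 1 was OXA1L, so no subunit of this list was called there.

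Among 10 regulators of mitochondrial genes, PPARGC1A, the coactivator of mitochondrial biogenesis, separated the cells with mCherry from those without. It had 11.1, 26.5 and 20.7 FPKM in GFP-mCherry+ libraries of day 25, against 0.912, 1.29 and 1.70 FPKM in GFP-mCherry- libraries (log2 difference 3.09, SE 0.39, limma adjusted p = 2.92e-05), and differed by 2.52 at day 40 (SE 0.39, limma adjusted p = 0.000177). GFP+mCherry+ libraries of day 25 had 4.81, 12.9 and 12.8 FPKM, and their differences from GFP-mCherry+ cells, -0.90 at day 25 and -0.75 at day 40, were not called. ESRRG, an orphan nuclear receptor of oxidative metabolism, differed between GFP+mCherry+ and GFP-mCherry+ cells by -1.25 and -1.33 (limma adjusted p = 0.0272 and 0.0287) and between GFP-mCherry+ and GFP-mCherry- cells by 2.22 and 2.18 (limma adjusted p = 0.000369 and 0.000403). Of the 10 regulators, 4 were higher and 3 lower in GFP-mCherry+ than in GFP-mCherry- cells at day 25, and 2 and 2 at day 40. Of all genes tested, 12.1% were higher and 16.4% lower there at day 25, and 13.3% and 18.5% at day 40. In GFP+mCherry+ against GFP-mCherry+ cells 2 regulators were higher and 1 lower at day 25, against 12% and 8.38% of all genes tested. At day 40, 3 were higher and 1 lower, against 16.2% and 9.29%. PPRC1, a relative of PPARGC1A, was higher by 0.72 and 0.69 (limma adjusted p = 0.0125 and 0.0215), and PPARGC1B, another, by 0.77 at day 40 (limma adjusted p = 0.02). Without library 13 the day 40 values were 0.45 for PPRC1, 0.48 for PPARGC1B and -0.88 for ESRRG, none of them called, and without library 1 the day 25 value of ESRRG was -0.78 and not called. MYC, a driver of growth and of ribosome genes, had differences of 1.19 and 1.46 in GFP+mCherry+ against GFP-mCherry+ cells (limma adjusted p = 0.0191 and 0.00885) and of -1.32 and -1.82 in GFP-mCherry+ against GFP-mCherry- cells (limma adjusted p = 0.00645 and 0.000601). The MYC calls against GFP-mCherry+ cells were lost without library 1 (0.82), 2 or 5 at day 25 and without library 13 at day 40. NRF1 and YY1, whose motifs were searched above, were called in none of these 4 comparisons, with limma adjusted p from 0.319 to 0.958 for NRF1 and from 0.104 to 0.874 for YY1. GABPA, the DNA-binding subunit of GABP, was lower in GFP-mCherry+ than in GFP-mCherry- cells at day 25 (-0.58, limma adjusted p = 0.0363), a call lost without library 5, 6, 8 or 9.

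Promoter strings and differences were set side by side. In GFP+mCherry+ against GFP-mCherry+ cells the 28 genes with the ETS string had medians of -0.49 at day 25 and -0.67 at day 40, against -0.50 and -0.67 for the 39 without. In GFP-mCherry+ against GFP-mCherry- cells the medians were 0.22 and 0.39 with the ETS string, against 0.21 and 0.47 without. The 23 genes with a YY1 string had medians of -0.42 and -0.67 in GFP+mCherry+ against GFP-mCherry+ cells, against -0.54 and -0.67 for the 44 without. In GFP-mCherry+ against GFP-mCherry- cells they had 0.20 and 0.50, against 0.23 and 0.39. MRPL36, with both an NRF1 and a YY1 match in the stretch printed above, and MRPS25, with none, were each among the calls that held under all 15 alternatives of a comparison at day 25. These medians are descriptions of matched letters and carry no test.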

How the data were processed

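Per the labels' protocols, the 17 RNA-seq libraries were prepared with Illumina's TruSeq RNA kit. Per the submitters' processing notes, the authors used hg19 as the build and bcl2fastq 2.19, cutadapt, STAR 2.5.2b and Cufflinks 2.1.1 as tools; how they were run is not given in the sources used here. The authors deposited a table of FPKM, a unit inferred from Cufflinks and from the values since the header gives none. Its 20368 rows (71 duplicate identifiers) were summed by symbol into 20218 genes; MRPL30 and MRPS17 had more than 1 row. Libraries were grouped by reporter and day from the labels.

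From the deposited FPKM, log2(FPKM + 1) was computed with no further scaling. The 14845 genes with at least 1 FPKM in 2 libraries entered limma 3.58.1 in R 4.3.3 (6 group means, 11 residual degrees of freedom, eBayes with a trend). For each of the 11 comparisons the Benjamini-Hochberg adjustment ran over all genes tested, and an adjusted p under 0.05 was called. Groups did not overlap in a gene when every library of 1 group exceeded every library of the other. Promoters came from RefSeq on GRCh38.p14, in windows from 250 bases before to 50 after the start. GC content was matched for 97.9% of tested genes.

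Named genes are MRPS6, MRPL12 and MRPS18A to MRPS18C, up to 6 members called in each direction with the smallest adjusted p, those called against the rest, the 6 highest and 6 lowest by mean FPKM, members listed at 0, up to 4 called genes of each pathway list, and 8 regulators. MRPS36, MRPS7, the least and most correlated genes and some values of genes outside their own comparison were added after their values were seen. Members and lists were chosen with earlier results of these data known. Alternatives were a pseudocount of 0.1, quantile normalization, median-of-ratios scaling, no filter, a fit of the 2 compared groups alone, a block on consecutive library numbers, zeros set to missing and each library left out. A loess correction for GC content (span 0.5) and the removal of libraries 13 and 14 were added after seeing the data.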

Additional observations from a re-analysis of the deposited data

How the results depend on the processing

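The median differences of the 76 genes moved by less than 0.139 under every alternative run. That is the within-group SD of the median of the 76 in single libraries, not the error of a difference of group means. In GFP+mCherry+ against GFP-mCherry+ cells at day 40 the median of -0.67 became -0.795 after the GC correction and -0.55 without library 17. The medians kept their direction except in GFP-mCherry+ cells between days. There the median of -0.01 was 0.066 with median-of-ratios scaling, 0.067 with quantile normalization, 0.036 without libraries 13 and 14, and -0.095 to 0.036 with 1 library left out. The median of all genes in GFP+mCherry+ against GFP-mCherry+ cells at day 40, 0.08, was -0.06 with quantile normalization and -0.05 after the GC correction. Counts of called genes moved more, and the cause was not tested. In GFP+mCherry+ against GFP-mCherry+ cells at day 25 the count of 29 became 44 after the GC correction and 10 to 23 with 1 library left out. At day 40 the count of 37 became 2 with only the compared groups in the fit, 58 after the GC correction, 10 without libraries 13 and 14, and 6 to 46 with 1 library left out. In GFP-mCherry+ against GFP-mCherry- cells at day 25 the count of 13 became 24 with median-of-ratios scaling, 23 with only the compared groups in the fit, 20 with the replicate block, 20 after the GC correction, and 6 to 18 with 1 library left out. At day 40 the count of 32 became 13 with only the compared groups in the fit and 13 to 32 with 1 library left out. In GFP+mCherry+ against GFP-mCherry- cells the count of 4 at day 25 became 8 with only the compared groups in the fit and 0 to 2 with 1 library left out. At day 40 the count of 5 became 10 with quantile normalization, 1 with only the compared groups in the fit, 3 with the replicate block, 1 without libraries 13 and 14, and 0 to 10 with 1 library left out.

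Between days the count of 4 in GFP+mCherry+ cells became 1 with only the compared groups, 1 after the GC correction, 1 without libraries 13 and 14, and 0 to 6 with 1 library left out. The count of 5 in GFP-mCherry+ cells became 0 under each of the same 3 settings and 0 to 13 with 1 library left out. The count of 3 in GFP-mCherry- cells became 1 with a pseudocount of 0.1, 0 with no filter, 1 with median-of-ratios scaling, 1 with quantile normalization, 1 with only the compared groups, 1 after the GC correction, 7 without libraries 13 and 14, and 0 to 1 with 1 library left out. The interaction of GFP+mCherry+ against GFP-mCherry+ cells with day gave 0 to 2 calls with 1 library left out.

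The sign of some single genes turned. GABPA in GFP+mCherry+ against GFP-mCherry+ cells was -0.024 after the GC correction at day 25 and -0.027 with quantile normalization at day 40. In GFP-mCherry+ against GFP-mCherry- cells TFAM at day 25 was 0.0095 with median-of-ratios scaling and 0.10 after the GC correction, YY1 at day 40 was 0.051 with median-of-ratios scaling, and MRPS6 at day 25 was 0.66 with zeros missing. With 1 library left out, the day 25 values in GFP+mCherry+ against GFP-mCherry+ cells ran from -0.14 to 0.047 for MRPS18C and from -0.23 to 0.018 for NRF1. In GFP-mCherry+ against GFP-mCherry- cells they ran from -2.82 to 0.66 for MRPS6 and from -0.057 to 0.14 for NRF1 at day 25, and from -0.080 to 0.71 for ESRRA and from -0.14 to 0.097 for YY1 at day 40.

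The labels do not state that consecutive library numbers mark a batch. Deviations from the group means had a mean r of 0.14 over 16 pairs within sets of consecutive numbers (-0.12 to 0.46) and -0.07 over 32 other pairs. With that replicate block PPARGC1A was called lower in GFP+mCherry+ than in GFP-mCherry+ cells (limma adjusted p = 0.00971 at day 25 and 0.0103 at day 40). Of the differences of single named genes, 1288 of 1473 values under other alternatives and 700 of 940 with 1 library left out kept their direction and call. Read depth behind the FPKM values is unknown, so counting error could not be given, and 2 GFP+mCherry+ libraries at day 40 limit that group.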
